A study of Mus musculus with 8 samples.

Results

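The 32 genes described here encode the steps of glycolysis and a set of transcripts known to rise when oxygen is low. They were chosen by symbol, and all 32 had a row in each of the 2 count tables, of 27775 gene rows in all. Of the 32, 21 belong to glycolysis and its lactate and pyruvate branch and 11 to the hypoxia response. In the first group are the glucose importer Slc2a1, the upper enzymes Hk1, Hk2, Gpi1, Pfkl, Pfkp, Pfkm and Pfkfb3, the lower enzymes Aldoa, Aldoc, Tpi1, Gapdh, Pgk1, Pgam1, Eno1, Eno2 and Pkm, and the branch genes Ldha, Slc16a3, Slc16a1 and Pdk1. The second group holds Bnip3, Vegfa, Car9, Ndrg1, Ankrd37, Ero1l, P4ha1, P4ha2, Egln3, Adm and Fam162a.

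Glycolysis splits glucose into pyruvate in the cytosol, and lactate dehydrogenase turns pyruvate into lactate when it is not burned in mitochondria. At low oxygen the prolyl hydroxylases that mark the HIF alpha subunits for destruction slow down, and HIF then binds short ACGTG or GCGTG stretches near its target genes, many glycolysis genes among them. Pancreatic ductal adenocarcinoma is known for its dense stroma, its poor blood supply and its high use of glucose.

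The cells came from 2 tumors of KPC mice, in which Pdx-1-Cre, with Cre under the Pdx1 promoter, acts in pancreatic epithelium on conditional alleles that include LSL-Trp53R172H/+. The mice were untreated, and their ages were not given in the sources used here. The medium-size tumor gave 2812 cells and 20301669 UMIs (unique molecular identifiers, each counted as 1 captured RNA molecule), with a median of 5456.5 UMIs per cell. The large-size tumor gave 1533 cells and 2239012 UMIs, with a median of 1037.0. Each tumor was 1 sample whose 4 technical replicates were pooled in 1 table, so no comparison here has a replicate check, and tumor size cannot be told apart from mouse, library and depth. The tables had 5 cell barcodes in common.

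Levels are given as CPM, the UMIs of a gene scaled to 1000000 UMIs of a group of cells. Intervals are exact 95% intervals that cover counting error only. UMIs were counted at the 3′ ends of transcripts and not divided by length, so each gene was compared with itself across groups and not with other genes. A member was counted as higher or lower where its ratio was at least 2 or at most 0.5 after adding 1 UMI to each sum, among genes with at least 10 expected UMIs in each group at their pooled level. The share of all such genes past the same fold is given beside the counts made on total UMIs.

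Cells were clustered in each tumor separately with the 32 genes kept out of the clustering. In the medium tumor, clusters 1 to 8 expressed epithelial keratins and claudins and are called epithelial-like (2331 cells), although cluster 8 carried 3 of the 11 epithelial markers with a summed level of 5935 CPM, against 9907 to 16582 CPM in the other 7. They are the carcinoma states of this text, each named by its leading genes, and no read of the mutant alleles was used. Clusters 9 and 13 were monocyte/macrophage-like (239 cells), cluster 11 stromal-like (68 cells) and cluster 14 endothelial-like (38 cells). Cluster 10 (73 cells, led by Dcn and Rarres2, with 6 of 6 mesothelial markers) and cluster 12 (63 cells, with 10 of 11 epithelial and 9 of 11 macrophage markers) stayed unnamed.

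In the medium tumor the 32 genes made up 0.742% of all UMIs, or 7417 CPM. The glycolysis sum was 6656 CPM (6618 to 6693) in epithelial-like cells and 7961 CPM (7780 to 8145) in monocyte/macrophage-like cells. The hypoxia-response sum was 807 CPM (794 to 820) in the epithelial-like and 711 CPM (658 to 768) in the monocyte/macrophage-like cells. In both sums the highest and the lowest of the 8 carcinoma states lay further apart than these cell types. The measures are unlike, since the extremes of 8 groups are set against pooled classes, and the epithelial-like class pools those same 8. The glycolysis sum went from 3269 CPM (3173 to 3367) in cluster 7, led by Dmbt1 and Lcn2, to 9736 CPM (9620 to 9852) in cluster 5, led by Yap1 and Birc2, a 2.98-fold range (2.89 to 3.08). The hypoxia-response sum went from 450 CPM (428 to 473) in cluster 3, the cycling state led by Ube2c and Birc5, to 1219 CPM (1179 to 1261) in cluster 5, a 2.71-fold range (2.55 to 2.88) that became 4.16-fold when the clustering used 20 principal components in place of 10. Cluster 8, led by Inhba and Bmp2, reached 1212 CPM (1162 to 1263), an interval that overlapped that of cluster 5.

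**Figure D1:**
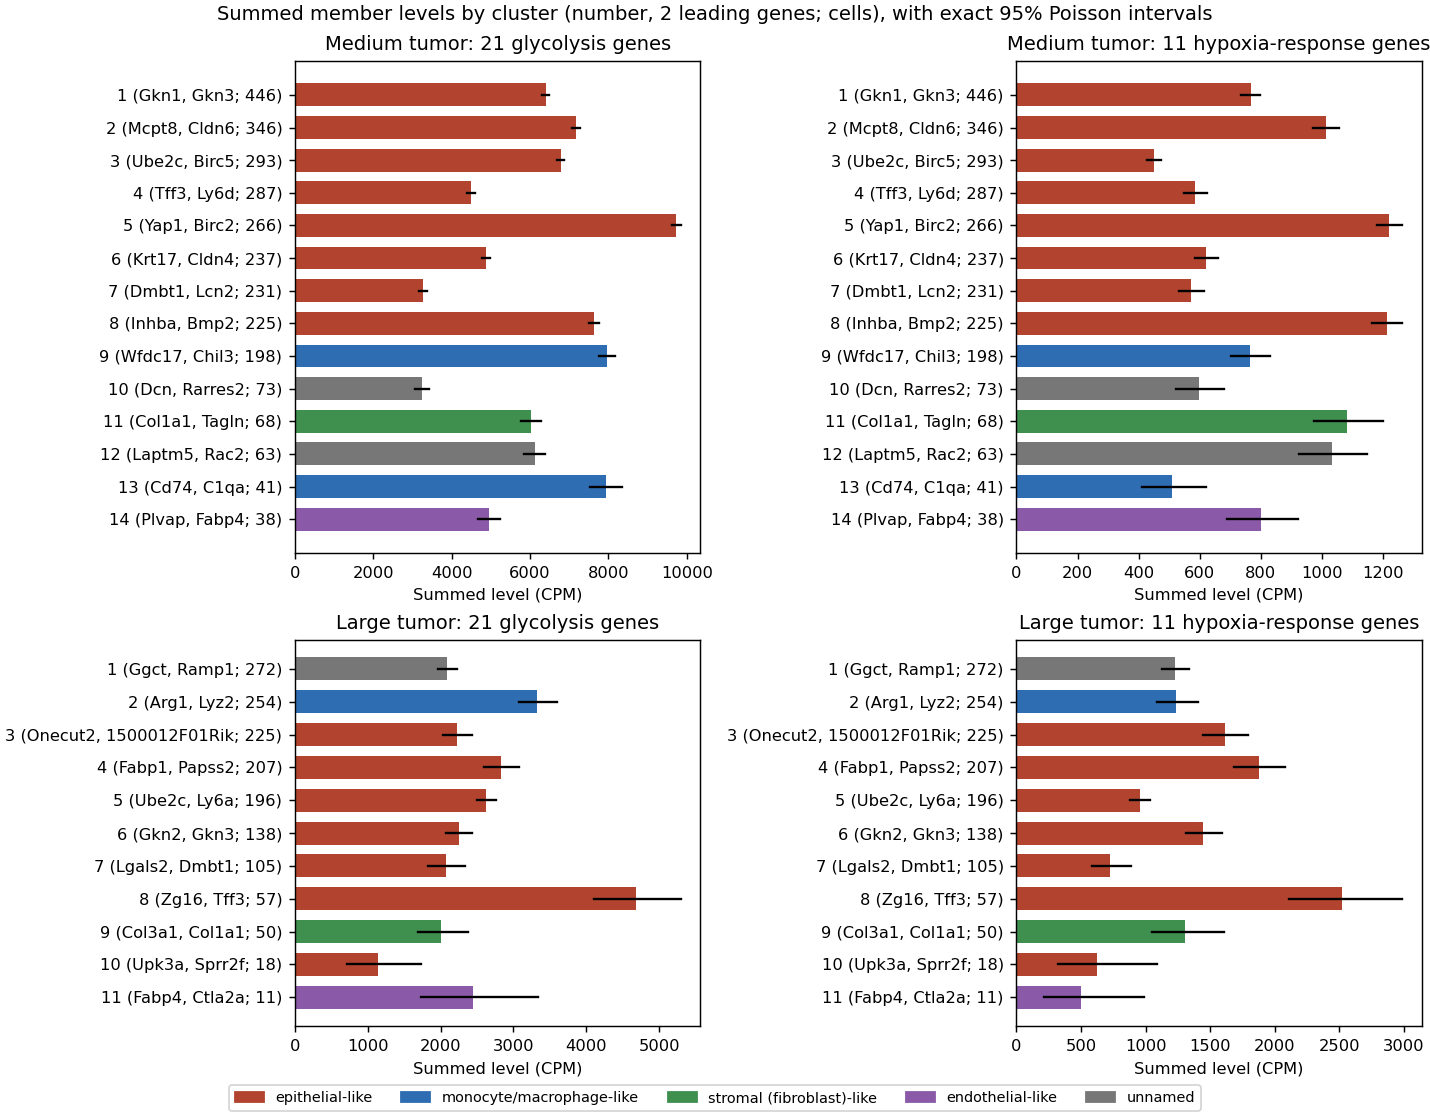
Summed levels (CPM, horizontal axes starting at 0) of the 21 glycolysis and the 11 hypoxia-response genes in each cluster of the medium tumor (upper panels) and the large tumor (lower panels). Bars are coloured by cell class, black lines are exact 95% Poisson intervals and the labels give the cluster number, its leading genes and its cells. In the medium tumor cluster 5 was highest for both sums, cluster 7 lowest for glycolysis among epithelial-like clusters and cluster 3 lowest for the hypoxia response.

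The 2 sums did not rank the carcinoma states alike. In cluster 3 the hypoxia-response sum was 0.505 times that of the other epithelial-like cells (0.479 to 0.532), and the glycolysis sum 1.02 times (1.01 to 1.04). In cluster 7 it was the glycolysis sum that lay furthest below the others, at 0.472 times (0.458 to 0.486), beside 0.692 times for the hypoxia response. Cluster 5 was above the others in both, at 1.60 times (1.58 to 1.62) for glycolysis and 1.67 times (1.60 to 1.73) for the hypoxia response. Cluster 8 was 1.59 times the others (1.52 to 1.67) in the hypoxia response and 1.17 times in glycolysis. Measures of depth and stress also differed between these clusters. The median UMIs per cell were 9797.0 in cluster 3, 8422.5 in cluster 5, 6496.0 in cluster 8 and 5255.0 in cluster 7. Ribosomal protein genes took 28.2% of the UMIs in cluster 5 and 17.2% in cluster 8, and 10 immediate early genes summed to 12306 CPM in cluster 7 against 2171 to 5971 CPM in the other 7. Their part in these differences was not tested.

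Several hypoxia-response genes were low in clusters 3 and 4 and high in cluster 8, among them Bnip3, a mitochondrial protein that promotes mitophagy, Ero1l, the endoplasmic reticulum oxidase that recharges disulfide formation, P4ha1, a collagen prolyl 4-hydroxylase subunit, and Ankrd37, an ankyrin repeat protein. Bnip3 stood at 18.8 CPM in cluster 4, 19.2 in cluster 3, 20 in cluster 7, 31.4 in cluster 6, 47.9 in cluster 1, 119 in cluster 2, 130 in cluster 5 and 179 in cluster 8. Among the carcinoma states, clusters 2, 5 and 8 thus held the high Bnip3 levels and clusters 3, 4 and 7 the low ones. Outside these states, the monocyte/macrophage-like cluster 9 had about the Bnip3 level of cluster 2, from 87 UMIs. Ero1l was highest in cluster 2 (156 CPM), followed by cluster 8 (129) and cluster 5 (88.5), and lowest in cluster 4 (31.9) and cluster 7 (32.6). P4ha1 went from 11.3 CPM in cluster 4 to 83.9 CPM in cluster 8, where it was 3.28 times the level of the other epithelial-like cells (2.71 to 3.95). Ankrd37 lay between 15.2 CPM in cluster 3 and 60.6 CPM in cluster 8.

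The windows around the starts of these 4 genes, of Car9, which took a different order across the states, and of Ldha, the glycolysis branch gene with the most matches, show the letters that HIF is known to bind. Each is 300 bases from 250 before to 50 after the start in RefSeq on build GRCm38.p6, 5′ to 3′ on the strand of the gene. Capitals mark ACGTG and GCGTG on either strand, so that CACGT and CACGC are matches on the opposite strand and CACGTG is a match on each. The windows are Bnip3 chr7:138909457-138909756 (minus strand), Ankrd37 chr8:45999801-46000100 (minus), Ero1l, listed by RefSeq as Ero1a, chr14:45318523-45318822 (minus), P4ha1 chr10:59323046-59323345 (plus), Car9 chr4:43506776-43507075 (plus) and Ldha chr7:46845554-46845853 (plus). RefSeq lists another Ldha start, whose window chr7:46846832-46847131 held 0 ACGTG and 2 GCGTG matches and is not printed.
Bnip3: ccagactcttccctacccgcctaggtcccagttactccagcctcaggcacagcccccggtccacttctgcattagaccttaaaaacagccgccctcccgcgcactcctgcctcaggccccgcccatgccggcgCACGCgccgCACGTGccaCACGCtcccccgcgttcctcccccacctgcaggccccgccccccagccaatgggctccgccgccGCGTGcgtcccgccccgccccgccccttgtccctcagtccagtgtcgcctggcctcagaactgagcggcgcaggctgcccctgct
Ankrd37: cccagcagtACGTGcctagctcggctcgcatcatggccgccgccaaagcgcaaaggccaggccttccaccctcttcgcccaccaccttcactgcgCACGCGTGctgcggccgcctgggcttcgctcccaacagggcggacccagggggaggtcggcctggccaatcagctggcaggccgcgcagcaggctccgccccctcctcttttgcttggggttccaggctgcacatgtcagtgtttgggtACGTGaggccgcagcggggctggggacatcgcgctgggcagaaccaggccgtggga
Ero1l: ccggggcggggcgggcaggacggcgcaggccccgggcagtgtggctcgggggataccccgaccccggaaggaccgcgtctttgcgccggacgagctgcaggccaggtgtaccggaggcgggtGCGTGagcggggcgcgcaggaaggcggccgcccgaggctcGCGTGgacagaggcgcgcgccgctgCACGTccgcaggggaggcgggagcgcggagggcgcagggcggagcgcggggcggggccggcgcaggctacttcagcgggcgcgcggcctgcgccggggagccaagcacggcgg
P4ha1: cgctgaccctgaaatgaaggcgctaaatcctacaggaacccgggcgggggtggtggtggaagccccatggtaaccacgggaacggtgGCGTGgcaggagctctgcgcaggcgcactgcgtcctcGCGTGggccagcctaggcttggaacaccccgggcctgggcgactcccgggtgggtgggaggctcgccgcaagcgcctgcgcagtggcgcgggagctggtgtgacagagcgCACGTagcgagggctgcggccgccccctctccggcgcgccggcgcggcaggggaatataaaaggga
Car9: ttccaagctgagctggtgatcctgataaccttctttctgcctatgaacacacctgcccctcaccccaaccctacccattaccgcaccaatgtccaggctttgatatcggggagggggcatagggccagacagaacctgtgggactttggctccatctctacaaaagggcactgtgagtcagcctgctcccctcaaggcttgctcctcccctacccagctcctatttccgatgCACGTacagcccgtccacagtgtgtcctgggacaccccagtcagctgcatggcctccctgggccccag
Ldha: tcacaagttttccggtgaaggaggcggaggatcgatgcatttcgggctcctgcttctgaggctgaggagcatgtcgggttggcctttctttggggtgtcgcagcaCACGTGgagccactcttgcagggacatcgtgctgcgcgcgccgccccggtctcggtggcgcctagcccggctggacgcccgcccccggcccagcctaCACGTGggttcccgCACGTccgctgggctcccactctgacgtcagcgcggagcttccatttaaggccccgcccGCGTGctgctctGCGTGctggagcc

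ACGTG or GCGTG stood in 80.0% of the 45 windows of the 31 members found in the RefSeq table, and in 43.8% of the 32851 windows of all 27025 genes in it. For ACGTG alone the shares were 57.8% and 19.6%, and for GCGTG 57.8% and 32.4%. The share with either was 90.9% of 11 hypoxia-response windows and 76.5% of 34 glycolysis windows. Ndrg1 was not matched. Such a match describes these letters in this window and does not show that a factor bound there.

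Car9, the membrane carbonic anhydrase of hypoxic tumors, took an order of its own. It was highest in cluster 4, led by Tff3, Ly6d and Reg1, at 206 CPM, next in cluster 1, led by Gkn1 and Gkn3, at 113 CPM, and lowest in cluster 8 at 24.9 CPM. In cluster 4 it was 3.35 times the level in the other epithelial-like cells (2.95 to 3.80), where Bnip3 was 0.246 times (0.165 to 0.353) and P4ha1 0.336 times (0.197 to 0.535). In cluster 8 the order was turned around, with Car9 at 0.312 times (0.228 to 0.419) and Bnip3 at 3.04 times (2.67 to 3.44).

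Vegfa, the endothelial growth factor, was highest in cluster 6, led by Krt17 and Cldn4, at 80.9 CPM, and ran between 26.3 and 65.0 CPM in the other states. Slc2a1, the glucose importer, and P4ha2, the second collagen prolyl hydroxylase subunit of the list, were also highest there, at 91.4 CPM and 27.5 CPM. They were at 2.19 times (1.84 to 2.60) and 2.73 times (1.95 to 3.77) the other epithelial-like cells. In these sums, cells with many UMIs weigh more. With each cell thinned to the same number of UMIs, Vegfa was seen in 16.9% of cells in both cluster 6 and cluster 8. P4ha2 was seen in 5.06% in cluster 6, against 4.14% in cluster 5, 4.00% in cluster 8 and 3.90% in cluster 7. Slc2a1 kept its lead, with 18.1% in cluster 6 and 13.5% in cluster 5, the next highest. Ndrg1, a stress-responsive cytosolic protein, was at 68.6 CPM in cluster 3 and 71.9 CPM in cluster 4 and between 177 and 279 CPM in the other 6. Egln3, the prolyl hydroxylase that itself answers to HIF, was highest in cluster 5 at 60.8 CPM and next in cluster 4 at 46.3 CPM. Adm, the peptide adrenomedullin, was a low transcript, with no UMI in cluster 3 and 11.9 CPM in cluster 5. Fam162a, a mitochondrial protein tied to hypoxic cell death, ran from 100 CPM in cluster 7 to 408 CPM in cluster 5 and 452 CPM in cluster 8.

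**Figure D2:**
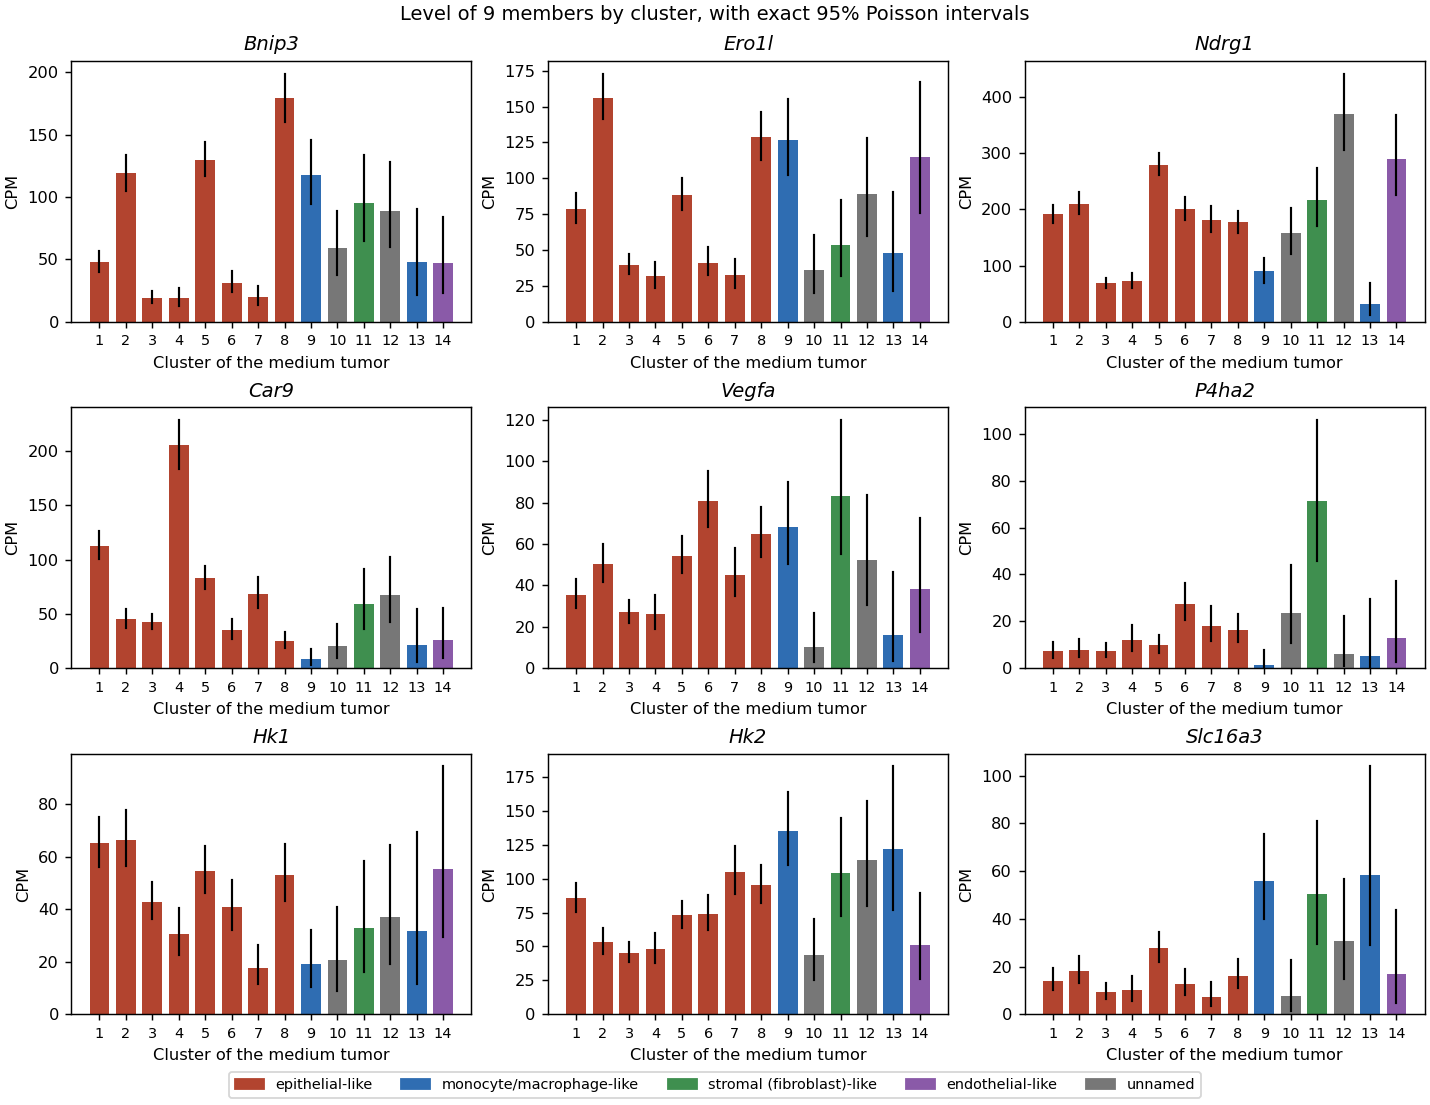
Levels (CPM, vertical axes starting at 0) of 9 members in the 14 clusters of the medium tumor, with exact 95% Poisson intervals as black lines and bars coloured by cell class. Among the epithelial-like clusters Bnip3 and Ero1l were high in clusters 2, 5 and 8, and Car9 in cluster 4. In the monocyte/macrophage-like cluster 9 Bnip3 was about as high as in cluster 2. P4ha2 was high in the stromal-like cluster 11, and Slc16a3 in the monocyte/macrophage-like clusters 9 and 13 and in cluster 11.

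Counted gene by gene against the other epithelial-like cells, the cycling cluster 3 had 0 members higher and 8 lower of 31 tested, where 4.30% of all genes tested were higher and 8.75% lower. Of the 8, 6 were hypoxia-response genes, namely Bnip3, Ndrg1, Ankrd37, Ero1l, P4ha1 and Adm, and the other two were the glycolysis genes Pfkfb3 and Aldoc. All 11 hypoxia-response genes had a ratio below 1, with a median log2 ratio of -1.09 beside -0.12 over all genes tested. Bnip3 was at 0.231 times (0.178 to 0.295) and Ndrg1 at 0.350 times (0.305 to 0.40).

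Cluster 5 was the reverse case. Of 31 members tested 29 had a ratio above 1, 5 were at least 2-fold higher and none lower, beside 1.47% higher and 10.4% lower over all genes tested. The 5 were Adm at 5.51 times (3.29 to 9.20), Egln3 at 2.31 times (1.92 to 2.78), Pgk1 at 2.25 times (1.83 to 2.77), Slc16a3, the lactate exporter MCT4, at 2.17 times (1.65 to 2.84) and Bnip3 at 2.15 times (1.90 to 2.43). Of the lower enzymes, Eno1 and Gapdh came close to that fold, with Eno1 at 1.98 times (1.85 to 2.11) and Gapdh at 1.92 times (1.88 to 1.96). The median log2 ratio of the members was 0.54, beside -0.20 over all genes tested.

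In cluster 8 the higher members were the hypoxia-response genes Bnip3, P4ha1 and Ankrd37 (60.6 against 30.4 CPM), and Car9 was the lower one, 3 and 1 of 30 tested, beside 6.76% and 10.5% of all genes. Cluster 2, led by Mcpt8 and Cldn6, had Ero1l higher at 2.41 times (2.14 to 2.73) and Aldoc lower, of 30 tested, beside 0.729% and 5.83%. Cluster 1 had no member past 2-fold in either direction of 31 tested, beside 3.18% and 6.33% of all genes.

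Among the states with low sums, cluster 7 had 13 of 30 members lower and 1 higher, beside 9.34% and 8.52% of all genes. The lower ones were mostly lower glycolysis and lactate genes, among them Pkm, the last enzyme of the path, at 280 against 919 CPM (0.305 times, 0.275 to 0.338), Ldha at 306 against 1017 CPM (0.301 times, 0.272 to 0.332) and Pgam1 at 0.273 times (0.226 to 0.327). The higher one was Pfkfb3, which makes the activator of phosphofructokinase, at 26.7 against 11.6 CPM. Cluster 4 had Car9 higher and 6 members lower of 30, beside 4.78% and 8.67%, and the 6 were Pgk1, Pgam1, Bnip3, Ndrg1, Ero1l and P4ha1. Cluster 6 had Slc2a1 and P4ha2 higher and Pfkp, Pgk1, Slc16a1, Bnip3 and Car9 lower of 30, beside 7.98% and 6.35%. Pgk1 and Bnip3 were lower in each of these 3 states, and Pgam1 and Ero1l in clusters 4 and 7.

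**Figure D3:**
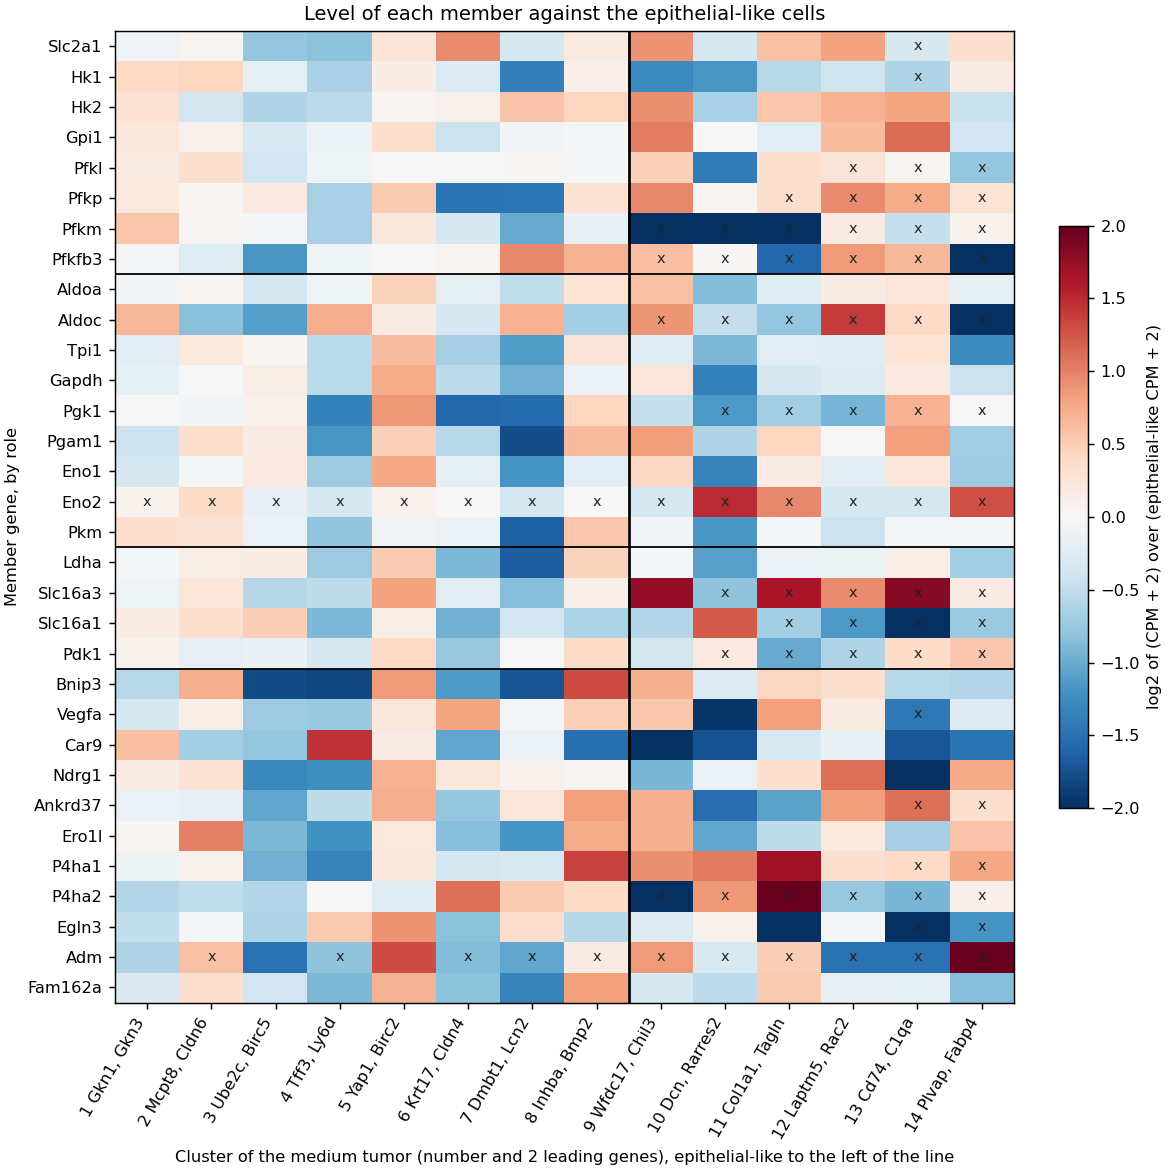
Each member's level in the 14 clusters of the medium tumor against all epithelial-like cells, as log2 of CPM with 2 added to both, red higher and blue lower, with members in order of role and a cross where fewer than 10 UMIs were expected. Colours stop at the ends of the scale. Cluster 5 was red over most rows, cluster 7 blue over the lower glycolysis rows, and cluster 3 blue over the hypoxia-response rows.

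Taken as sums by step of the pathway, the upper part of glycolysis varied less between states than the rest. The sum of the importer and upper enzymes lay between 321 CPM in cluster 3 and 498 CPM in cluster 5. The lower glycolysis sum lay between 2516 CPM in cluster 7 and 7775 CPM in cluster 5, a 3.09-fold range (2.98 to 3.20). The lactate and pyruvate branch lay between 356 and 1463 CPM in the same clusters, a 4.11-fold range (3.74 to 4.53). In cluster 7 the upper sum was 0.945 times that of the other epithelial-like cells (0.863 to 1.03), while the lower sum was 0.464 times (0.448 to 0.480) and the branch 0.329 times (0.300 to 0.360). Hexokinase 2 was at 105 CPM there, its highest level among the 8 states, and Hk1 at 17.8 CPM, its lowest. The upper sum thus hides changes of single genes that go opposite ways. Gapdh, the glyceraldehyde phosphate dehydrogenase, went from 1328 CPM in cluster 7 to 4359 CPM in cluster 5. Ldha went from 306 CPM in cluster 7 to 1375 CPM in cluster 5 and 1327 CPM in cluster 8. Pdk1, the kinase that shuts pyruvate dehydrogenase, stayed between 11 and 27 CPM. Pfkm, the muscle phosphofructokinase, and the neuronal enolase Eno2 were low in every state, with 2.96 to 12.7 CPM for Pfkm and at most 3 UMIs for Eno2.

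Monocyte/macrophage-like cells of the medium tumor had 1.16 times (1.14 to 1.19) the member sum of epithelial-like cells, and the steps differed. The upper glycolysis sum was 708 against 418 CPM, 1.69 times (1.56 to 1.83), the lower sum 1.19 times (1.16 to 1.22) and the lactate branch 1.03 times (0.961 to 1.09). Of 29 members tested, 2 were higher, beside 7.46% of all genes. They were Slc16a3 at 56.3 against 15 CPM (3.74 times, 2.73 to 5.05) and Gpi1, the glucose phosphate isomerase, at 359 against 173 CPM (2.07 times, 1.85 to 2.32). Hk2 followed at 132 against 69.9 CPM and Pfkp at 1.95 times (1.43 to 2.61), while Ldha was at 1.00 times (0.935 to 1.07). The 4 lower members, beside 26.4% of all genes, were Car9 at 10.8 against 74.1 CPM (0.146 times, 0.0699 to 0.269), Ndrg1 at 78 against 171 CPM, Hk1 at 21.7 against 49.1 CPM and P4ha2, with 2 UMIs. Epithelial markers summed to 667 CPM in cluster 9 and 641 CPM in cluster 13, so RNA of epithelial cells in these barcodes can hide part of such a fall, which was not tested.

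In monocyte/macrophage-like cells the hypoxia-response sum was 0.882 times that of epithelial-like cells (0.814 to 0.953) by total UMIs and 1.06 times with TMM scaling, so its direction rests on the scaling. That scaling moved all ratios of this comparison by 0.27 on the log2 scale, and gave 9 of 27 members higher and 1 lower, beside 10.0% and 20.1% of all genes under that scaling. Classing each cell by its own markers gave 1 of 29 higher and 1 lower, beside 7.20% and 18.9%. Within these cells, the dividing cluster 13, led by Cd74 and C1qa with a cycling sum of 1843 CPM against 43.5 CPM in cluster 9, had a lower hypoxia-response sum, at 508 (412 to 621) against 763 CPM (702 to 829). Its glycolysis sum was 0.995 times that of cluster 9. Of 19 members tested, 5 were lower there and none higher, beside 3.43% and 6.05% of all genes, and these were Slc2a1, Bnip3, Vegfa, Ndrg1 and Ero1l. The counts were small, with 9 UMIs of Bnip3 and 9 of Ero1l in cluster 13.

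The stromal-like cluster 11 had a hypoxia-response sum of 1082 CPM (974 to 1199), 1.34 times that of the epithelial-like cells (1.21 to 1.49), and a glycolysis sum 0.905 times. The sum over all members was 0.952 times (0.914 to 0.991) and turned to 1.03 times without Gapdh. Its subunits of the collagen prolyl hydroxylase stood out. P4ha1 was at 107 against 31.6 CPM (3.39 times, 2.35 to 4.75), and P4ha2 at 71.3 against 11.8 CPM (6.03 times, 3.78 to 9.22), the latter below the minimum of expected UMIs. Slc16a3, also below that minimum, was at 50.5 CPM (29.4 to 80.9), next to 56.3 CPM in the monocyte/macrophage-like cells. Of 21 members tested P4ha1 was the 1 higher and Egln3, with 2 UMIs, the 1 lower, beside 6.10% and 16.4%. Endothelial-like cells had 0.769 times the member sum, with Tpi1 (0.412 times, 0.305 to 0.546) and Car9 (6 UMIs) lower and none higher of 17 tested, beside 8.72% and 4.90%. Their Adm level of 21.3 CPM, from 5 UMIs, was the highest of any cluster, and Ndrg1 reached 289 CPM. The unnamed cluster 10 had a member sum 0.513 times that of the epithelial-like cells, with 9 of 23 members lower and 2, Slc16a1 and P4ha1, higher, beside 15.6% and 5.31%. In the unnamed cluster 12, Ndrg1 was at 369 CPM, the 1 higher member of 20, beside 3.01%, with none lower, beside 4.12%.

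For enzymes and carriers with 2 forms on the list, the share of UMIs taken by each form was compared between cell types, and it differed beyond its intervals between epithelial-like and monocyte/macrophage-like cells of the medium tumor for the Hk2, Slc16a3 and P4ha2 pairs. The intervals overlapped for Aldoc, at 1.79% and 2.32% of the UMIs of Aldoa and Aldoc, and for Pfkp, at 47.6% and 56.8% of those of Pfkl and Pfkp. Hk2 took 58.7% of hexokinase UMIs (Hk1 and Hk2) in epithelial-like cells (56.6% to 60.8%), 85.9% in monocyte/macrophage-like cells (79.1% to 91.2%) and 76.1% in stromal-like cells (61.2% to 87.4%). Among carcinoma states it took 44.6% in cluster 2 and 85.5% in cluster 7 (79.3% to 90.5%). Slc16a3 took 33.6% of the UMIs of Slc16a1 and Slc16a3 in epithelial-like cells (30.4% to 37.0%) and 77.6% in monocyte/macrophage-like cells (65.8% to 86.9%), and stromal-like cells were close to the latter at 73.9% (51.6% to 89.8%). Among carcinoma states the share went from 18.2% in cluster 3 to 46.9% in clusters 6 and 8. P4ha2 took 27.3% of the UMIs of P4ha1 and P4ha2 in epithelial-like (24.2% to 30.5%), 40% in stromal-like (27.6% to 53.5%) and 3.64% in monocyte/macrophage-like cells (0.443% to 12.5%), and reached 53.2% in cluster 6. In the large tumor the order of epithelial-like and monocyte/macrophage-like cells was again the same for Slc16a3, with 16.8% (10.7% to 24.5%) and 80.0% (44.4% to 97.5%). For Hk2 the shares were 82.3% (74.9% to 88.2%) and 95%, the latter from 20 UMIs (75.1% to 99.9%), and these intervals overlap. For P4ha2 they were 24.7% (16.2% to 35.0%) and 10.0% (2.11% to 26.5%), which also overlap.

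In the large tumor the 32 genes made up 0.376% of UMIs, or 3762 CPM, and Eno2 had 0 UMIs, which allows up to 1.34 CPM. Epithelial-like cells (946 in clusters 3 to 8 and 10) had a glycolysis sum of 2527 CPM (2448 to 2608) and a hypoxia-response sum of 1287 CPM (1231 to 1345). The cycling cluster 5, led by Ube2c, again had a lower hypoxia-response sum than the other epithelial-like cells, at 954 CPM (878 to 1034) or 0.628 times (0.570 to 0.692), with a glycolysis sum of 1.07 times (1.00 to 1.14). Of 22 members tested 8 were lower and none higher there, beside 14.6% and 11.3% of all genes. They were Egln3 (0.187 times, 0.0718 to 0.412), Slc2a1 (0.271 times, 0.145 to 0.474), Pdk1 (0.289 times, 0.117 to 0.625), Ndrg1 (0.290 times, 0.219 to 0.381), Car9, Pfkp, Vegfa and Gpi1. Ndrg1 was the 1 member among the 8 lower ones of the cycling cluster in both tumors. Cluster 5 was also the deepest of the large tumor, with a median of 2402.5 UMIs per cell.

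Clusters 4 and 8 of the large tumor carried genes of intestinal epithelium, with an enterocyte list at 31397 CPM in cluster 4 and a goblet list at 28102 CPM in cluster 8. Their hypoxia-response sums were 1876 CPM (1687 to 2080) and 2520 CPM (2109 to 2988), the highest of this tumor. In cluster 4, 4 of 16 members were higher, beside 15.1% of all genes, namely Car9 at 370 against 84.5 CPM (4.38 times, 3.20 to 5.94), Slc2a1 at 167 against 47.6 CPM (3.51 times, 2.22 to 5.45), Ndrg1 at 641 against 196 CPM (3.28 times, 2.62 to 4.08) and Ero1l at 130 against 53.6 CPM. Hk2 was the 1 lower member, beside 32.9%. In cluster 8, Ndrg1 was at 706 CPM (3.00 times, 2.08 to 4.22), and Gapdh and Ldha were at 2.43 and 2.06 times, 3 of 6 members tested, beside 13.9% of all genes, and none was lower, beside 24.2%. In cluster 3, led by Onecut2, Vegfa was at 125 CPM (2.42 times, 1.49 to 3.83), 1 of 16 members higher beside 1.84%, with none lower beside 9.08%. In cluster 6, led by Gkn2 and Gkn3, Hk2 was at 147 CPM (2.46 times, 1.64 to 3.63) and Vegfa at 105 CPM, 2 of 20 higher beside 3.68%, and Pfkp was the 1 lower, beside 7.02%. In cluster 7, led by Lgals2 and Dmbt1, Hk2, Gapdh (0.345 times, 0.200 to 0.558), Pkm and Ndrg1 were lower and none higher, 4 of 10 members tested, beside 13.2% and 5.09%. In the unnamed cluster 1, led by Ggct and Ramp1, Pfkp, Pdk1, Car9 (0.113 times, 0.0408 to 0.25) and Egln3 were lower than in epithelial-like cells and none higher, 4 of 21, beside 11.7% and 7.35%. Stromal-like cells, with 50 cells, had P4ha1 at 161 CPM and P4ha2 at 117 CPM, and of 8 members tested Gapdh was lower and none higher, beside 15.8% and 6.50%.

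Monocyte/macrophage-like cells of the large tumor (254 cells) had 1.2 times the member sum of its epithelial-like cells (1.12 to 1.29), and 1.29 times when clusters 4 and 8 were left out of the latter. Of 17 members tested, P4ha1 at 137 against 44.2 CPM (3.10 times, 1.91 to 4.92) and Ankrd37 at 117 against 55.4 CPM (2.11 times, 1.27 to 3.38) were higher, beside 10.3% of all genes. Ndrg1 at 86.3 against 252 CPM (0.343 times, 0.198 to 0.556), Car9 at 10.2 against 121 CPM and Slc16a1 at 10.2 against 68.6 CPM, with 2 UMIs each, were lower, beside 22.8%. Against the epithelial-like cells without clusters 4 and 8, 5 of 17 members were higher, namely Bnip3 (112 against 43.2 CPM, 2.58 times, 1.5 to 4.31), Gpi1, Ankrd37, Ero1l and P4ha1, beside 10.7%, and Slc16a1 and Car9 were lower, beside 21.5%. Bnip3 had too few expected UMIs to be counted when those clusters were kept, and Ndrg1, at 0.495 times (0.283 to 0.810), was not counted as lower without them, since members are counted on folds with 1 UMI added to each sum. Car9 was thus among the lower members in both tumors, in the large one with and without those clusters.

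Between the tumors the sums of the 2 gene groups differed in opposite directions, but the interval of the hypoxia-response ratio spanned 1 once Fam162a and clusters 4 and 8 of the large tumor were both left out. In epithelial-like cells the glycolysis sum of the large tumor was 0.380 times that of the medium tumor (0.368 to 0.392) and the hypoxia-response sum 1.60 times (1.52 to 1.67), or 1.26 times without Fam162a. With clusters 4 and 8 left out of the large tumor, the hypoxia-response sum was 1.42 times (1.35 to 1.5), or 1.00 times (0.926 to 1.08) without Fam162a, and the glycolysis sum 0.360 times. Bnip3 was lower in the large tumor, at 39.6 against 71.1 CPM, and so was Ero1l, at 63.3 against 76.5 CPM, neither past 2-fold, while the other 8 hypoxia-response genes tested had a ratio above 1. The glycolysis difference lay in the lower enzymes, at 0.217 times (0.207 to 0.228), while the upper genes were at 0.721 times and the lactate branch at 1.07 times. Gapdh was at 355 against 2596 CPM (0.137 times, 0.125 to 0.149), Pkm at 155 against 871 CPM (0.178 times, 0.156 to 0.202), Eno1 at 7.91 against 252 CPM (0.0314 times, 0.0162 to 0.0549) and Aldoa at 162 against 637 CPM. Ldha was at 981 against 964 CPM. Of 30 members tested 9 were lower, beside 18.4% of all genes, and 2, Fam162a at 590 against 255 CPM (2.31 times, 2.15 to 2.48) and Slc16a1 at 68.6 against 29.7 CPM, were higher, beside 6.35%. Without clusters 4 and 8 the same 2 were higher, beside 5.17%, and 10 were lower, Pfkl being the added one, beside 18.2%. Monocyte/macrophage-like cells had a glycolysis sum 0.418 times and a hypoxia-response sum 1.74 times that of the medium tumor. Of 19 members tested there, Fam162a (2.65 times, 2.07 to 3.38), P4ha1 and Ankrd37 were higher, beside 8.27% of all genes, and Gapdh (0.173 times, 0.141 to 0.210), Pkm, Aldoa, Gpi1 and Eno1 lower, beside 11.1%.

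This difference moved with the base composition of the transcript ends. Over the 8383 genes tested in epithelial-like cells that had an annotated end, the log2 ratio between the tumors was lower the higher the GC share of the 500 bases before the transcript end (Spearman rho -0.433 across genes, which are not replicates), and over the 30 members tested rho was -0.477. Genes with less than 40% GC had a median ratio of 1.12 and genes with at least 55% GC one of 0.515. Aldoa, Gapdh and Eno1 are the members of the latter bin. With the members over 50% GC left out, the member sum of the large tumor was 1.01 times that of the medium tumor, against 0.511 times (0.498 to 0.525) with all members. Over the 14 glycolysis genes among those kept the ratio was 0.806 (0.775 to 0.837), and the 11 hypoxia-response genes, none of them over 50% GC, stayed at 1.60. Of the 9 lower members 5 had under 50% GC, with log2 ratios of -1.81 for Pgk1, -1.56 for Aldoc, -1.52 for Hk1, -1.37 for Gpi1 and -1.20 for Tpi1. The members of the highest GC bin had a median log2 ratio of -2.87, against -0.96 over all its genes. In monocyte/macrophage-like cells rho was -0.419 over 2321 genes. The part of base composition in the levels was not tested further. The counts of Eno1 and Pgk1 are uncertain because each has a near-identical copy, Eno1b and Pgk1-rs7. These copies had 84 and 22 UMIs in the medium tumor. In the large tumor they had 3 each, where Eno1 and Pgk1 had 12 and 10 in epithelial-like cells. How reads matching both a gene and its copy were counted was not given in the sources used here. The UMIs of the copies therefore do not bound this uncertainty. The counts of Pfkm and Pkm are uncertain because other annotated genes, Gm26513 and Gm49759, overlap their exons.

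**Figure D4:**
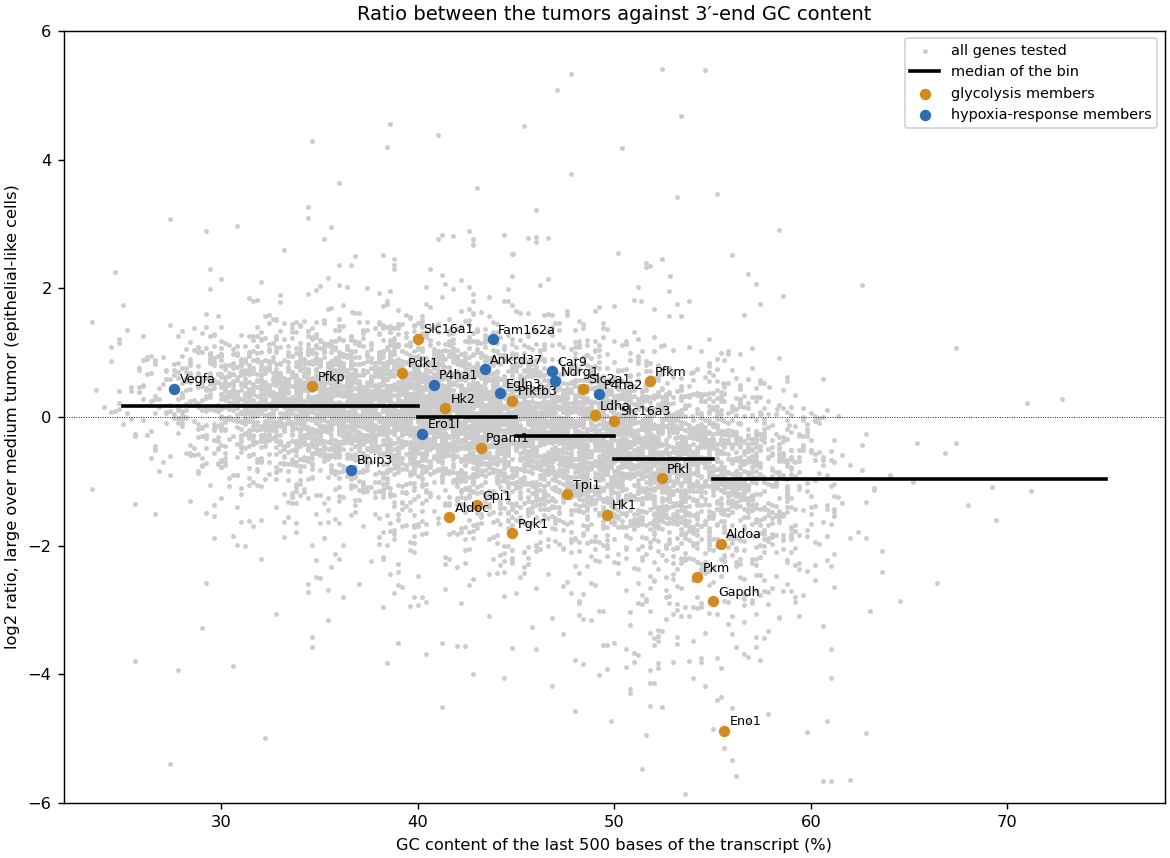
Log2 ratio of the large over the medium tumor in epithelial-like cells (vertical axis) against the GC share, in percent, of the 500 bases before each transcript end (horizontal axis), with all genes tested in grey, the median of each GC bin as a black line, glycolysis members in orange and hypoxia-response members in blue. Ratios fell toward high GC, and Aldoa, Pkm, Gapdh and Eno1 lay at the high-GC end below the black lines.

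Other genes of the same pathways were read from lists beside the 32. Hif1a, the oxygen-regulated HIF subunit, was at 217 against 75.9 CPM in monocyte/macrophage-like over epithelial-like cells of the medium tumor (2.85 times, 2.45 to 3.31) and at 376 against 114 CPM in the large tumor (3.29 times). Across the 8 carcinoma states of the medium tumor it stayed between 64.4 and 95 CPM. Epas1, the second HIF subunit, was highest in endothelial-like cells at 157 CPM. Of 15 further hypoxia genes tested for the monocyte/macrophage-like class there, Hif1a, Mxi1, Gbe1 and Bhlhe40 were higher and Angptl4 and Tfrc lower, beside 7.46% and 26.4% of all genes. In cluster 8, Mxi1 (2.94 times, 2.27 to 3.79), Angptl4 (3.02 times, 2.53 to 3.58) and Ccng2 (2.18 times, 1.77 to 2.66) were higher and Epas1, Stc2 and Tfrc lower, of 20 tested, beside 6.76% and 10.5%. In cluster 5, 0 of 20 further hypoxia genes were higher, near the 1.47% over all genes, and Epas1 was lower, beside 10.4%.

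The genes of pyruvate oxidation and the respiratory chain did not pass 2-fold in any epithelial-like cluster of the medium tumor except cluster 8, where Mpc1 and Fh1 were lower, 2 of 16 pyruvate oxidation genes, beside 10.5% of all genes, and the respiratory chain genes had a median ratio of 0.840. In cluster 3, 0 of 17 pyruvate oxidation and 0 of 22 respiratory chain genes were higher or lower, beside 4.30% and 8.75% of all genes, and 19 of the 22 had a ratio above 1 with a median of 1.18. The cycling cluster 5 of the large tumor differed from this, with 5 of 22 respiratory chain genes above 1, a median of 0.834 and none past 2-fold, and with 3 of 14 pyruvate oxidation genes lower and none higher, beside 14.6% and 11.3%. In cluster 5 of the medium tumor, 0 of the 17 and 0 of the 22 were past 2-fold, beside 1.47% and 10.4%, with a median ratio of 0.910 over the 22. In cluster 4 of the large tumor, 7 of 10 pyruvate oxidation genes were higher and none lower, beside 15.1% and 32.9%, among them Ogdh at 6.43 times (4.35 to 9.47) and Mdh2 at 3.47 times (3.02 to 3.99). In cluster 7 of that tumor 5 of 6 were higher (Mpc1, Mpc2, Pdha1, Sdha and Sdhb) and none lower, beside 5.09% and 13.2%. The pyruvate oxidation genes went the other way in its cluster 3, with 5 of 11 lower and none higher, beside 9.08% and 1.84%, in cluster 6, with 4 of 12 lower and Pdha1 higher, beside 7.02% and 3.68%, and in the unnamed cluster 1, with 5 of 13 lower and none higher, beside 11.7% and 7.35%. These comparisons share cells, since each cluster was set against the other epithelial-like cells of the tumor, clusters 4 and 7 included.

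With 20 principal components in place of 10, a cluster of 143 cells split off from the medium tumor, of which 104 came from cluster 2 and 31 from cluster 1. It was picked for its hypoxia-response sum, the highest of that clustering, so its values are a description. The sum was 1866 CPM (1769 to 1966), against 761 CPM (748 to 774) in the 2191 other epithelial-like cells and 660 CPM in the 242 cells left in cluster 2. Ero1l led the cluster, at 368 against 63.8 CPM (5.76 times, 5.03 to 6.58), followed among members by Bnip3 at 236 against 63.9 CPM, Ndrg1 at 454 against 159 CPM and Egln3 at 65.0 against 30.1 CPM. These were the 4 of 26 members past 2-fold, beside 0.609% of all genes, and none was lower, beside 7.34%. Car9 was at 1.00 times (0.753 to 1.31) and Ldha at 1.07 times. The glycolysis sum was 7850 against 6605 CPM. Among other genes, the metallothionein Mt1 was at 1839 against 688 CPM. These cells had a median of 4167.0 UMIs against 6117.0, ribosomal protein genes at 30.2% against 23.0% and Malat1, a nuclear RNA, at 38033 against 20815 CPM, and the part of these in the levels was not tested.

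**Figure D5:**
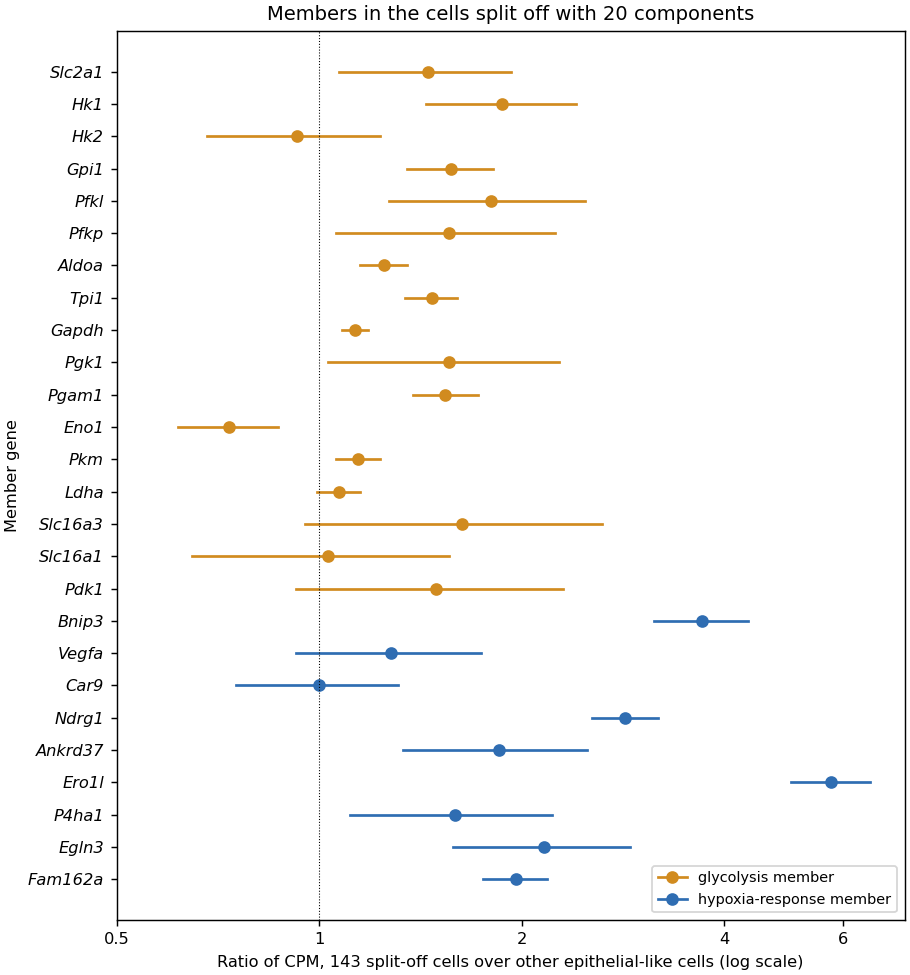
Ratio of CPM of each tested member between the 143 cells split off with 20 components and the other epithelial-like cells of the medium tumor, on a log axis, with exact 95% intervals as lines, glycolysis members in orange and hypoxia-response members in blue. Ero1l, Bnip3, Ndrg1 and Egln3 lay above 2, Car9 and Hk2 near 1, and Eno1 below 1.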

How the data were processed

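Single cells of 2 KPC tumors were captured with the 10x Chromium 3′ chemistry and aligned by the authors with Cell Ranger to mm10. Per the labels, each tumor had 4 technical replicates, and the authors deposited 1 table of UMI counts per tumor in which they are pooled. The Cell Ranger version, the annotation and the filter on cells were not given in the sources used here.

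Counts were log-normalized to 10000 per cell and clustered for each tumor with Seurat 5.3.0 (2000 variable genes, 10 principal components, resolution 0.8), with the 32 genes and the other pathway lists removed from the variable genes. A cluster was named from at least 3 markers, each seen in 10% of its cells and in 25% of the share of the best cluster, unless another class reached 60% of its markers, and these limits were set in earlier work with values known. Scrublet (scanpy 1.11.5) called 0 and 9 doublets, and none was removed. Because that is few calls, the cells in the highest 5% of scores were left out in an alternative.

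Counts were summed per group, with exact Poisson, binomial and conditional ratio intervals from scipy 1.17.1. No test was run, since each tumor is 1 sample. TMM factors came from edgeR 4.0.16. The code was tested on simulated data. All 32 members are described, and other genes are named if they are on the pathway lists or lead a cluster, or if they follow the hypoxia-response sum most closely. Members and lists were chosen with earlier results of these data known. Some items are not reported here.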

Additional observations from a re-analysis of the deposited data

How the results depend on the processing

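Alternatives of grouping, scaling and left-out sets gave 62 alternative values for 6 results, of which 39 moved by less than their counting error or by less than 1.5 times for a count, 21 moved by more and 2 changed direction. Against 1.16, the monocyte/macrophage-like over epithelial-like member sum was 1.11 at resolution 0.4, 1.12 with each cell classed by its own markers, 1.12 without ribosomal protein genes in the totals, 1.23 as a mean of per-cell shares and 1.27 without cluster 5. Against 0.952, the stromal-like over epithelial-like sum was 0.878 with each cell classed by its own markers and reversed to 1.03 without Gapdh, and resolution 0.4 gave no stromal-like cluster. The hypoxia-response range of 2.71 was 4.16 with 20 components, where the cells rich in Ero1l formed their own cluster, and 3.07 as a mean of per-cell shares. The glycolysis range of 2.98 was 2.50 at resolution 0.4, 3.22 without ribosomal protein genes and 2.33 without cluster 5. Against 0.511, the large over medium member sum in epithelial-like cells was 0.497 with members kept among the variable genes, 0.496 at resolution 0.4 and with 20 components, 0.542 without ribosomal protein genes, 0.556 as a mean of per-cell shares, 0.711 without Gapdh, 0.540 with TMM scaling and 0.475 without clusters 4 and 8 of the large tumor, and reversed to 1.01 without members over 50% GC. The count of 6 members past 2-fold in monocyte/macrophage-like cells was 2 with each cell classed by its own markers (1 higher, 1 lower, beside 7.20% and 18.9% of all genes) and 10 with TMM scaling (9 higher, 1 lower, beside 10.0% and 20.1%). The cause of these shifts was not tested beyond what each alternative changes. The alternatives without clusters 5, 8 or 13, without clusters 4 and 8 of the large tumor, and by GC content were chosen after seeing the data. No paired analysis was possible because the columns carry no replicate numbers and no test was run. Depth limits the counts of members, since in cluster 8 of the large tumor 6 members had enough expected UMIs to be counted, in its cluster 10 the number was 2 and in its endothelial-like cells 1.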

Other observations

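Within cells, the hypoxia-response and glycolysis sums were set side by side after thinning each of the 2331 epithelial-like cells of the medium tumor to 2500 UMIs. Spearman rho between the sums was 0.286 over these cells of 1 library, which share depth after thinning but not cell state. By cluster it was 0.477 in cluster 8, 0.473 in cluster 5, 0.359 in cluster 2, 0.216 in cluster 1, 0.172 in cluster 4, 0.122 in cluster 3, -0.011 in cluster 7 and -0.031 in cluster 6. Clusters 2, 5 and 8, with the high levels of Bnip3 among these states, were thus those with the higher rho. They also had the most hypoxia-response UMIs per thinned cell, with means of 2.75, 3.56 and 3.26 against 1.13 to 1.87 in the others. Sparse counts keep values of rho low, and sparsity differed between the clusters ranked here. Its part in their order was not tested, and the values are a description with no test.

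Over the same cells, 2524 genes with at least 1000 UMIs that are not hypoxia-response members were ranked by their rho with the hypoxia-response sum. The glycolysis members Ldha (0.227), Pgam1 (0.204), Aldoa (0.201), Tpi1 (0.191) and Gapdh (0.179) were among the 10 highest. The 10 highest genes outside the list were Mif (0.231), a cytokine, Mt1 (0.212), a metal-binding metallothionein, Ftl1 (0.191), the ferritin light chain, Lgals3 (0.189), a galectin, Sprr1a (0.187), Ugdh (0.174), Tsc22d1 (0.171), Higd1a (0.170), a mitochondrial protein of the further hypoxia genes, Fth1 (0.166), the ferritin heavy chain, and Hilpda (0.160), a lipid droplet protein. As the median over the clusters taken separately, rho was lower for each, at 0.168 for Mif, 0.127 for Mt1, 0.161 for Lgals3, 0.157 for Higd1a, 0.107 for Ugdh, 0.103 for Tsc22d1, 0.099 for Ftl1 and Fth1, 0.059 for Sprr1a and 0.056 for Hilpda. The median rho of all 2524 was -0.007, and each of these values is weak. Among 406 pairs of members the values were 0.392 for Gapdh and Ldha (0.277 as the median within clusters), 0.294 for Bnip3 and Fam162a (0.179) and 0.286 for Bnip3 and Ero1l (0.174).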
